A study of Mus musculus with 6 samples.

Results

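Chemokine and homing receptors are the surface proteins that steer blood cells into, within and out of the bone marrow. The 10 genes described here are Cxcr4, Cxcr2, Cxcr3, Ccr1, Ccr2, Ccr7, Cx3cr1, Ccrl2, S1pr1 and Ackr3. They were taken by symbol, each through 1 Ensembl gene identifier, from the 47729 genes of a read count table. The choice was made with earlier results of these data known. The table comes from a bulk RNA-seq study of mouse bone marrow that set 3 libraries with the SNORD113-114 cluster knocked out (cluster KO) against 3 wildtype libraries. The cluster encodes many small nucleolar RNAs of the box C/D class within the imprinted Dlk1-Meg3 domain, and the title of the series ties it to the self-renewal of hematopoietic stem cells and to translation. Both groups are marrow with no treatment named. Strain, age, sex, the construct of the deletion, and any sorting or lineage depletion of the cells are not stated in the labels. The design names 3 mice of each kind, but which animal a library came from is not labelled, so the p-values below reflect how far libraries spread.

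Most of these receptors couple to inhibitory G proteins and make a leukocyte crawl up a gradient of their ligand. CXCR4 holds stem cells, B cell precursors and maturing neutrophils near stromal cells that make CXCL12, while CXCR2 draws neutrophils out towards the blood. CCR2 is needed for monocytes to leave the marrow, S1PR1 lets lymphocytes exit towards the sphingosine 1-phosphate (S1P) of the blood, and CCR7 guides lymphocytes and dendritic cells to lymph nodes. ACKR3 and CCRL2 are atypical receptors that bind a ligand without moving the cell, the first for CXCL12 and the second for chemerin.

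Of the 10 genes, 4 rose in cluster KO marrow and none fell. Ccr1 was 3.83-fold, Ccr7 3.70-fold, Ccrl2 1.70-fold and Cxcr4 1.52-fold higher (edgeR quasi-likelihood test, Benjamini-Hochberg adjusted p = 0.0243, 0.0196, 0.0341 and 0.0471). Over all 15686 genes that passed the low-count filter, 15.9% were called higher and 12.1% lower at the same threshold of 0.05. The other 5 tested genes, Cxcr2, Cxcr3, Ccr2, Cx3cr1 and S1pr1, did not pass, and Ackr3 had no read in any library. All 9 tested genes had a positive log2 fold change, with a median of 0.79 against 0.00 over all tested genes. Every one of the 9 stayed positive under each of the 13 alternative settings, whereas the number called varied from 0 to 5. In bulk RNA of a tissue, a different share of a cell type and a different amount of RNA per cell cannot be told apart.

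The sequences upstream of 4 of the genes are shown because these 4 differ in outcome and in promoter letters: Cxcr4, Ccr1 and Ccrl2 were called and Cxcr2 was not. Each run is the 250 bases before the transcription start in RefSeq on GRCm38.p6, written 5′ to 3′ on the gene's strand. Capitals mark, on either strand, the TATA box with the letters TATAAA, the GC box with the letters GGGCGG, the box named for its letters CCAAT, the PU.1 core with the letters GAGGAA, the core of Kruppel-like factors with the letters CACCC, and the palindromic NRF-1 consensus. The table held entries for 8 of the 10 genes. For Ccrl2, with 3 entries, the start nearest to the annotated gene start was used.
Cxcr4, chr1:128592300-128592549, minus strand: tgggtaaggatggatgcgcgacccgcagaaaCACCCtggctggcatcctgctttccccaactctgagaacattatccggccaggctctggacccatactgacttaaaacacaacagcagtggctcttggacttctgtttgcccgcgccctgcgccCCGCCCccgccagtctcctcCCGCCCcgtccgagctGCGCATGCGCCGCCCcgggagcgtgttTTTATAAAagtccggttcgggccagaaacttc
Ccr1, chr9:123968693-123968942, minus strand: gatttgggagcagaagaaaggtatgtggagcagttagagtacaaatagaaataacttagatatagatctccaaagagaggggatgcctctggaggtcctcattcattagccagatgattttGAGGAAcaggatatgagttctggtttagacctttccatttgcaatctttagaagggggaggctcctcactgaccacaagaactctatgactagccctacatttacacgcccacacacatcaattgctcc
Ccrl2, chr9:111057519-111057768, minus strand: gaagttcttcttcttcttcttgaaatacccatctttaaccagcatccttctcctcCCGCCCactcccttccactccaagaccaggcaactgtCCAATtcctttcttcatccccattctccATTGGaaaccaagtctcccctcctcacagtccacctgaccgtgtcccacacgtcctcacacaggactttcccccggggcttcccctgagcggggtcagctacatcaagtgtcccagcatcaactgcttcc
Cxcr2, chr1:74153744-74153993, plus strand: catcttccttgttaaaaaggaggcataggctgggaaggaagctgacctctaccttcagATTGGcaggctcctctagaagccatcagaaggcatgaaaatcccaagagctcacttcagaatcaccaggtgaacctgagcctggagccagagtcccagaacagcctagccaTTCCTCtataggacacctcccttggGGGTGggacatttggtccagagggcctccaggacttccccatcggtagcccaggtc

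The Cxcr4 run held TATAAA at 32 to 27 bases before the start on the reverse strand and at 30 to 25 on the forward strand, where the matches overlap. It also held 3 GGGCGG matches, the nearest of which, at 50 to 45, shares 1 base with the NRF-1 consensus at 59 to 50. Over all 32851 promoters of the table, 12.4% held the TATA box, 32.7% the GC box and 0.782% the NRF-1 consensus in such a window. The Ccr1 run had 1 match, GAGGAA at 129 to 124, a motif in 23.3% of promoters. Ccrl2 had the GC box once and the CCAAT box at 2 positions. Cxcr2 had the CCAAT box, the PU.1 core and the Kruppel-like core once each, and the first and last of these were in 33.8% and 52.0% of promoters. A match describes letters in this window and nothing was measured here about a factor's binding.

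The 6 libraries held 17663369 to 23459168 counts on genes, and reads set aside by the counter as ambiguous, multiply aligned or outside genes made up 23.4 to 30.8% of all reads. Levels are CPM, the share of a gene in its library's counts on the usual per-million scale, with library sizes scaled by TMM, a normalization that sets the bulk of genes equal across libraries. Libraries of the same genotype were distinct beyond counting error, at a chi-square per degree of freedom of 12.2 to 71.4. The deletion could not be checked from these counts. Rian, the host transcript on chromosome 12 at 109603940 to 109661716, had 9, 6 and 3 counts in cluster KO and 11, 5 and 38 in wildtype, and the 23 snoRNA genes of the region had 1 count in all. Poly(A) libraries capture such RNAs poorly. Against the label of bone marrow, hemoglobin genes took only 0.0217 to 0.0859% of counts, while the stem and progenitor marker Kit stood at 243 to 363 CPM.

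Per kilobase of exon, Cxcr4 was the most abundant of the 10 receptors in every library. Its levels were 19.2, 20.9 and 23.0 CPM in cluster KO and 14.9, 10.7 and 15.9 CPM in wildtype libraries, from 189 to 497 counts. Every cluster KO library lay above every wildtype library. The mean was 21.1 ± 1.91 against 13.8 ± 2.77 CPM (SD, n = 3 each), a log2 fold change of 0.60 with a standard error (SE) of 0.20 and a 95% interval of 0.16 to 1.05. The gene lies at 128588199 to 128592293 on chromosome 1 of GRCm38, on the minus strand. The call sat close to the threshold: it was lost on leaving out cluster KO replicate 2 (adjusted p = 0.125) or 3 (0.118), or wildtype replicate 1 (0.0839), 2 (0.161) or 3 (0.0672), and under upper quartile scaling (0.0892). With trends of fold change on transcript length and GC content removed, the log2 fold change was 0.32 (edgeR adjusted p = 0.267).

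S1pr1, the S1P receptor of lymphocyte exit, was slightly higher and did not pass. Its levels were 11.5, 11.3 and 10.6 CPM in cluster KO and 7.37, 9.40 and 8.15 CPM in wildtype libraries. The groups did not overlap, and the cluster KO libraries lay within 1 CPM of each other. This gave a log2 fold change of 0.42 (SE 0.21, 95% interval -0.04 to 0.89, edgeR adjusted p = 0.157). The gene lies at 115710433 to 115715072 on chromosome 3, and the non-coding gene Gm9889 lies 78 bases away on the other strand, with 2 to 35 counts per library. No alternative called S1pr1.

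Ackr3, the atypical CXCL12 receptor that lowers free CXCL12, is known from endothelial and stromal cells more than from blood cells. The gene, at 90203980 to 90216751 on chromosome 1, had 0 counts in all 6 libraries. A count of 0 allows up to 3 counts, 0.126 to 0.170 CPM, for counting error alone. Markers of such cells differed in level. Cdh5, the endothelial cadherin, had 0, 4 and 5 counts in cluster KO and 5, 35 and 1 in wildtype libraries. Col1a1, a collagen of bone-forming cells, had 0 counts in 3 libraries and at most 6. Kdr had 42 to 87 counts per library, Cxcl12 60 to 2084, Lepr 2 to 195 and Kitl 0 to 68. Pecam1 and Emcn were at 17 CPM or more in every library, but stem and progenitor cells carry them too.

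Cxcr2, the main receptor of neutrophils for Cxcl1 and related ligands, lies at 74153989 to 74161246 on chromosome 1 and showed no change that passed. It stood at 7.86, 6.90 and 10.1 CPM in cluster KO and 5.43, 5.44 and 10.1 CPM in wildtype libraries. Wildtype replicate 3 lay at the level of the highest cluster KO library, and the groups overlapped. The log2 fold change was 0.24 (SE 0.31, 95% interval -0.44 to 0.92, edgeR adjusted p = 0.583). It was 0.61 without wildtype replicate 3, 0.09 without either other wildtype library and 0.08 without cluster KO replicate 3, and was not called in any of these.

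**Figure D1:**
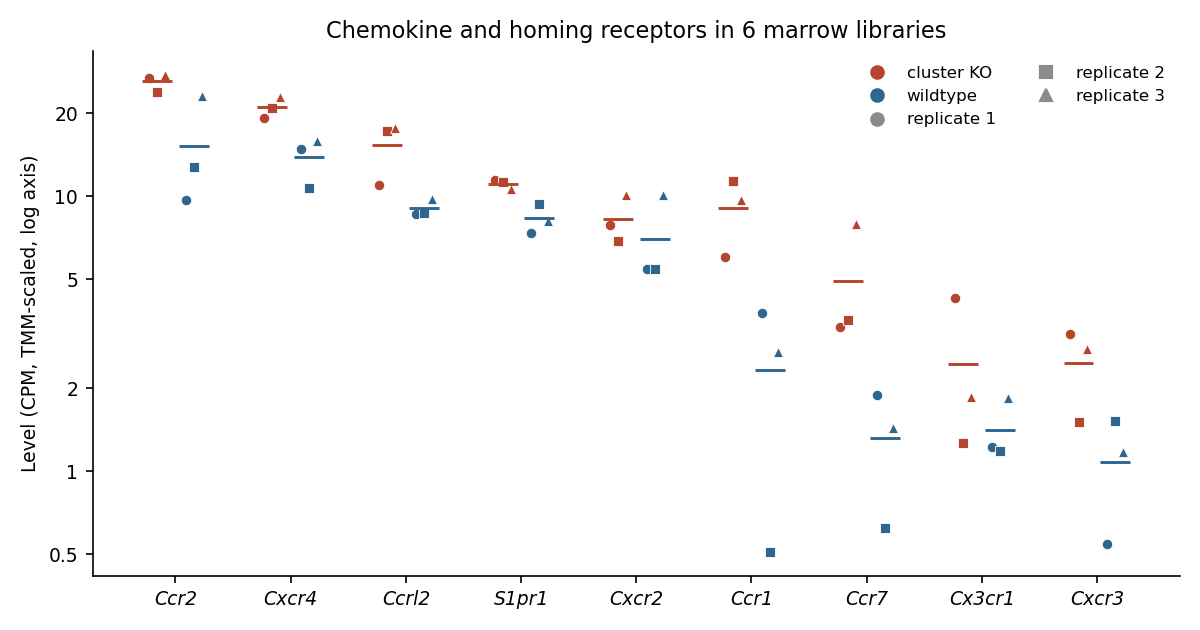
Level of the 9 tested receptors in each library, in CPM on a log axis; red marks cluster KO, blue wildtype, the shape gives the replicate and bars the mean of 3. Cxcr4, Ccr1, Ccr2, Ccr7, Ccrl2 and S1pr1 show no overlap between genotypes, whereas Cxcr2, Cxcr3 and Cx3cr1 do.

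Among the receptors of inflammatory myeloid cells, Ccr1 rose and Ccr2 and Cx3cr1 did not pass. Ccr1, a receptor of monocytes and neutrophils for Ccl3, Ccl6 and Ccl9, was at 6.03, 11.4 and 9.66 CPM in cluster KO and at 3.76, 0.510 and 2.72 CPM in wildtype libraries. Wildtype replicate 2 stood apart with 9 counts, against 53 to 271 in the other libraries. The log2 fold change was 1.94 (SE 0.54, 95% interval 0.74 to 3.14). The gene lies at 123962124 to 123968692 on chromosome 9. Leaving out wildtype replicate 2, the lowest library, kept the call, whereas it was lost without cluster KO replicate 2 (adjusted p = 0.0901) or 3 (0.0567) or wildtype replicate 3 (0.074).

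Ccr2, the monocyte receptor for Ccl2, had the largest mean CPM of the set in both genotypes and, in CPM, the largest SD among wildtype libraries. It was at 27.0, 24.0 and 27.7 CPM in cluster KO and at 9.73, 12.8 and 23.1 CPM in wildtype libraries. The groups did not overlap, but wildtype replicate 3 lay just under the lowest cluster KO library. The gene lies at 124101950 to 124113557 on chromosome 9. The mean was 26.2 ± 1.97 against 15.2 ± 7.01 CPM (SD, n = 3 each), a log2 fold change of 0.79 (SE 0.28, 95% interval 0.16 to 1.42, edgeR adjusted p = 0.0619). Without wildtype replicate 3 it was 1.22 (adjusted p = 0.0179), with DESeq2 it passed (adjusted p = 0.0201), and it also passed with length and GC trends removed (0.0233) and without the low-count filter (0.0375).

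Cx3cr1, the fractalkine receptor of monocytes that patrol vessels, was low in all libraries but 1. It was at 4.25, 1.26 and 1.86 CPM in cluster KO and at 1.22, 1.19 and 1.84 CPM in wildtype libraries. Cluster KO replicate 1 was the high library, and the log2 fold change of 0.79 (SE 0.51, 95% interval -0.35 to 1.93, edgeR adjusted p = 0.276) became 0.13 without it. The annotated span of Cx3cr1, 119901616 to 120069879 on chromosome 9, covers the bodies of Wdr48, Gorasp1, Ttc21a, Csrnp1 and Xirp1, and 1 of its exons overlaps the antisense gene Gm33858. Reads of the latter and of Cx3cr1 cannot be told apart in libraries without strand.

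Of the lymphoid receptors, Ccr7 rose and Cxcr3 did not pass. Ccr7, whose ligands Ccl19 and Ccl21 guide cells into lymph nodes, was at 3.34, 3.53 and 7.94 CPM in cluster KO and at 1.90, 0.623 and 1.43 CPM in wildtype libraries. Cluster KO replicate 3 was more than 2 times the other cluster KO libraries, and the groups did not overlap. The gene lies at 99144196 to 99155077 on chromosome 11. The log2 fold change was 1.89 (SE 0.50, 95% interval 0.78 to 2.99), and the call was lost without cluster KO replicate 3 (adjusted p = 0.0858), wildtype replicate 2 (0.0668) or wildtype replicate 3 (0.0669).

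Cxcr3, a receptor of activated T and NK cells for Cxcl9 and Cxcl10, rested on 12 to 69 counts per library and lies on chromosome X at 101731535 to 101734269. It was at 3.15, 1.51 and 2.79 CPM in cluster KO and at 0.543, 1.53 and 1.18 CPM in wildtype libraries. Cluster KO replicate 2 lay at the level of wildtype replicate 2, so the groups overlapped. This gave a log2 fold change of 1.20 (SE 0.50, 95% interval 0.08 to 2.32, edgeR adjusted p = 0.101).

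Ccrl2, the atypical chemerin receptor of myeloid cells, at 111054486 to 111057519 on chromosome 9, rose. It was at 11.0, 17.3 and 17.7 CPM in cluster KO and at 8.64, 8.66 and 9.79 CPM in wildtype libraries. The wildtype libraries were close together and cluster KO replicate 1 lay nearest to them. The log2 fold change was 0.77 (SE 0.23, 95% interval 0.25 to 1.28). The call was lost without cluster KO replicate 2 (adjusted p = 0.129) or 3 (0.102), or wildtype replicate 1 (0.0931), 2 (0.104) or 3 (0.0759), and under upper quartile scaling (0.0543). With length and GC trends removed the log2 fold change was 0.49 (adjusted p = 0.124).

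**Figure D2:**
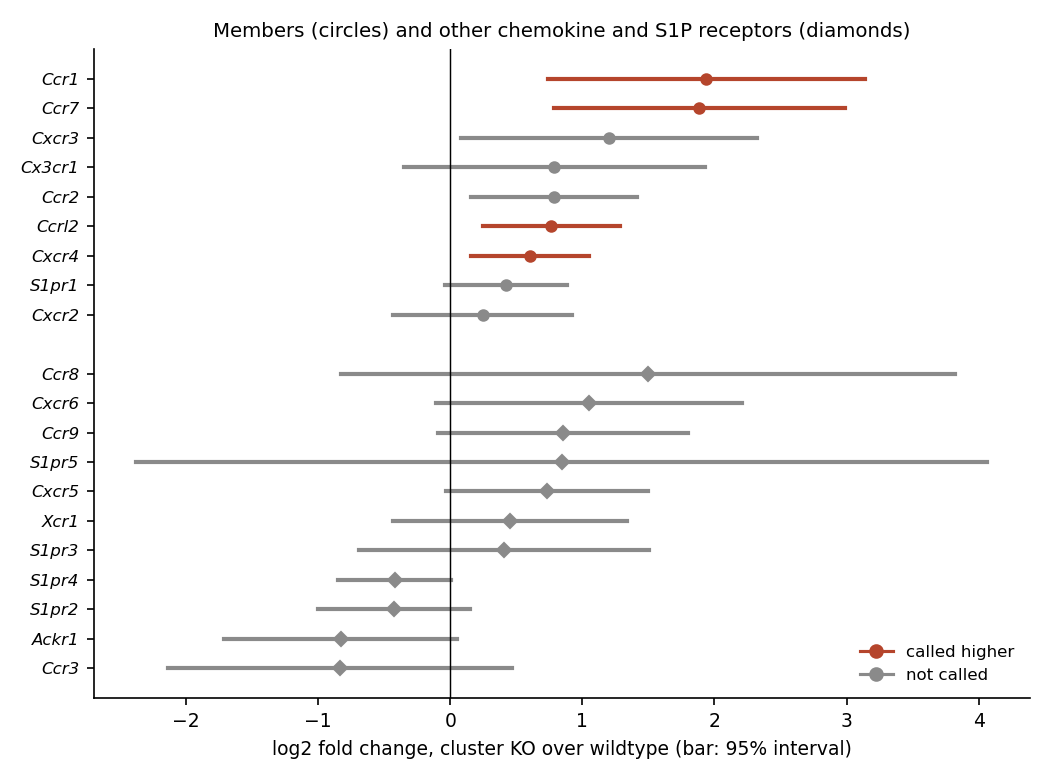
Log2 fold change of cluster KO over wildtype with its 95% interval for the 9 tested receptors (circles) and other tested chemokine and S1P receptors reported here (diamonds). Red marks the 4 called genes, Ccr1, Ccr7, Ccrl2 and Cxcr4, and grey the genes not called.

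Cells of the marrow carry these receptors in different mixtures, so the levels of cell type markers in the same libraries are given beside them. B lineage markers summed to 2296, 2308 and 2137 CPM in cluster KO and to 717, 732 and 780 CPM in wildtype libraries, and 8 of 10 were called higher. Neutrophil markers summed to 20154, 11838 and 10649 CPM against 6269, 9288 and 12103 CPM, with 5 of 13 called higher and the groups overlapping. Monocyte and macrophage markers summed to 282, 178 and 168 CPM against 163, 158 and 142 CPM, with 2 of 10 called higher. Over all tested genes, 15.9% were called higher and 12.1% lower. No marker of these 3 lists was at 0 in any library, although Elane, a protease of early neutrophil granules, was at 2.19 CPM in cluster KO replicate 2 and at 113 to 710 CPM in the others.

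T and NK cell markers had lower sums, at 37.9, 34.3 and 25.2 CPM in cluster KO and 55.7, 44.7 and 51.1 CPM in wildtype libraries. Of the 8 tested, 1 was called lower, near the 12.1% over all tested genes. Dendritic cell markers were at 124, 104 and 133 CPM against 107, 102 and 96.7 CPM. Of the 7 tested, 1 was called higher, near the 15.9% over all tested genes, and Cd209a had 0 counts in 2 libraries. The called gene was Flt3, at 39.2, 38.6 and 42.7 CPM in cluster KO and 22.5, 19.9 and 20.3 CPM in wildtype libraries. Flt3 is also on the stem and progenitor list and is counted again there. Stem and progenitor markers were at 1359, 1385 and 1414 CPM against 1167, 1158 and 1186 CPM, with 5 of 10 called higher and 1 lower. With 3 libraries against 3, the smallest 2-sided exact permutation p is 0.1, which 8 of the 10 marker sums reached (0.125 adjusted over the 10 lists), while the neutrophil sum had p = 0.3 and the dendritic sum p = 0.2. Basophil, mast cell and eosinophil markers summed to 183, 156 and 165 CPM in cluster KO and 116, 69.1 and 72.8 CPM in wildtype libraries. Most of that sum was Cpa3, at 171, 138 and 146 CPM against 79.1, 60.5 and 54.9 CPM. Cpa3 was the 1 gene called higher of 7 tested, and the list had a median log2 fold change of -0.28. Stromal and endothelial markers summed to 168, 117 and 90.4 CPM against 44.1, 87.3 and 52.8 CPM. Of the 6 tested there, 2 were called higher, Pecam1 and Emcn, and Cxcl12 ranged from 2.71 to 95.2 CPM. The part of all these shifts in the changes of Cxcr4, Ccr1, Ccr7 and Ccrl2 was not tested.

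**Figure D3:**
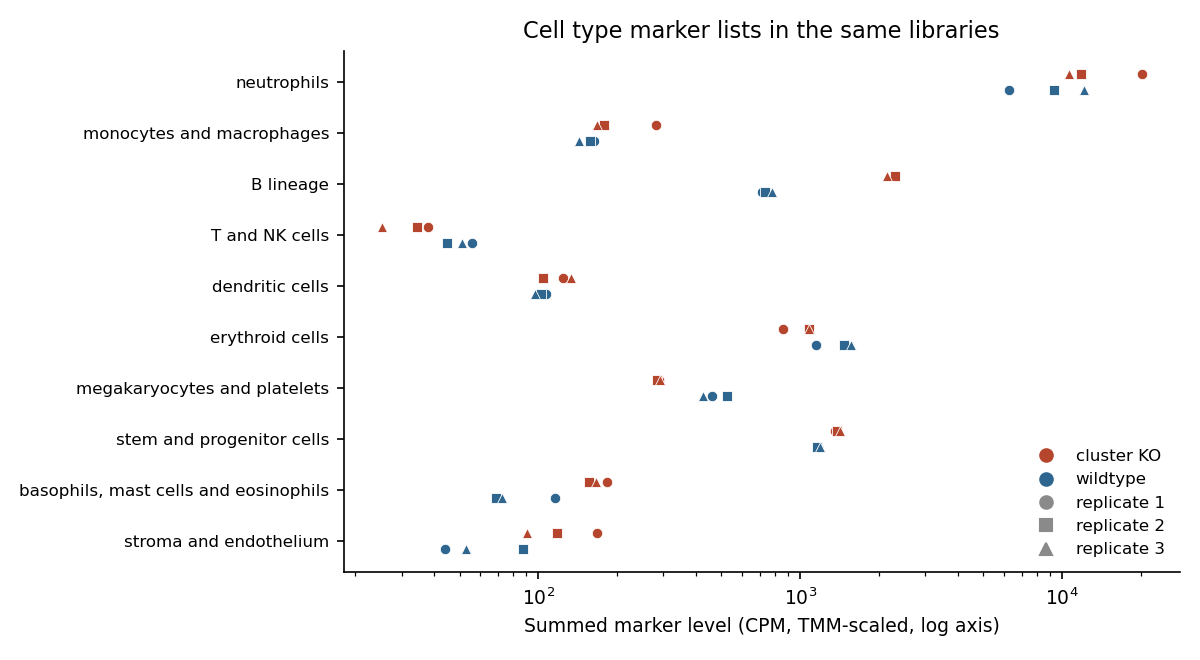
Summed CPM of each cell type marker list in each library, on a log axis, with red for cluster KO, blue for wildtype and the replicate by shape. B lineage sums are separated by a ratio of 3.02 between means, while neutrophil sums overlap.

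Per kilobase of exon, a scale on which genes can be compared, Cxcr4 led in both genotypes, at 11.7 ± 1.06 CPM per kb in cluster KO and 7.66 ± 1.53 in wildtype libraries (SD, n = 3 each). Ccrl2 followed at 5.91 ± 1.45 and 3.48 ± 0.252 CPM per kb, without overlap with Cxcr4 above or the next gene below in either genotype, although in wildtype its libraries overlapped the highest ones of Cxcr2 and Ccr2, further down the order. In cluster KO the order went on with Ccr2 at 3.88, S1pr1 at 3.65, Ccr1 at 3.19, Cxcr2 at 2.72, Ccr7 at 2.50, Cxcr3 at 1.44 and Cx3cr1 at 0.545 CPM per kb. From Ccr2 down to Cx3cr1, each gene's libraries overlapped those of the next, so neighbours in that stretch are not ordered beyond their spread. In wildtype the stretch ran S1pr1 at 2.73, Cxcr2 at 2.30 and Ccr2 at 2.25 CPM per kb, which overlapped, and then Ccr1 at 0.821, Ccr7 at 0.667, Cxcr3 at 0.626 and Cx3cr1 at 0.315 CPM per kb, which also overlapped each other. Within that wildtype stretch the libraries of Ccr2 and Ccr1 did not overlap. Cxcr4 made up 33.5, 33.3 and 31.9% of the summed level per kb of the 10 receptors in cluster KO and 41.0, 33.5 and 35.6% in wildtype libraries.

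Ccr1, Ccr2, Cx3cr1 and Ccrl2 lie on chromosome 9, and Cxcr4, Cxcr2 and Ackr3 lie on chromosome 1. Ccr1l1, 8551 bases from Ccr1, had at most 17 counts in a library. Ltf, the lactoferrin gene of neutrophil granules, lies 11719 bases from Ccrl2 on the other strand. It was at 413, 326 and 379 CPM in cluster KO and 89.4, 156 and 139 CPM in wildtype libraries, a log2 fold change of 1.54 (SE 0.19, edgeR adjusted p = 0.00168).

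Outside the 10 genes, 18 further chemokine and S1P receptors were looked up and 12 were tested. None was called by edgeR, beside 15.9% higher and 12.1% lower over all tested genes, and DESeq2 called 0 higher and 1 lower. At an unadjusted p under 0.05, edgeR had 0 higher and 1 lower, beside 6426 of all 15686 tested genes in either direction. Leaving out cluster KO replicate 1 or wildtype replicate 3 gave 1 higher call. The 12 tested receptors of this list had a median log2 fold change of 0.43. S1pr4, the S1P receptor of blood cells with the highest level per kb on this list, was at 11.5, 10.8 and 12.5 CPM in cluster KO and 14.0, 14.6 and 17.9 CPM in wildtype libraries. Its groups did not overlap and its log2 fold change of -0.42 (SE 0.19, edgeR adjusted p = 0.127) had the opposite sign to that of S1pr1. With length and GC trends removed, S1pr4 passed (adjusted p = 0.0376). Cxcr6, a receptor of lymphocytes and NK cells, stood at 3.38, 10.4 and 12.2 CPM, compared with 2.13, 3.34 and 7.12 CPM in wildtype (difference on the log2 scale 1.05, SE 0.52, edgeR adjusted p = 0.157), and was called only without cluster KO replicate 1 (0.0272) among all alternatives. Cxcr5, the follicle homing receptor of B cells, had 0.73 (SE 0.35, adjusted p = 0.139), and Ackr1, an atypical receptor of erythroid and endothelial cells, had -0.83 (SE 0.40, adjusted p = 0.142).

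Of the ligands of these receptors, 17 were tested, 1 rose and 3 fell, with a median log2 fold change of -0.29, beside 15.9% higher and 12.1% lower over all tested genes. The 3 lower calls became 6 without cluster KO replicate 1 and 1 without wildtype replicate 1. Ccl6, a CCR1 ligand made by myeloid cells, was at 87.4, 76.6 and 84.1 CPM in cluster KO and 25.7, 17.9 and 30.3 CPM in wildtype libraries (log2 fold change 1.75, SE 0.19, edgeR adjusted p = 0.00104). Pf4, a platelet chemokine, fell from 253, 310 and 205 CPM in wildtype to 103, 61.0 and 47.2 CPM in cluster KO libraries (-1.86, SE 0.27, adjusted p = 0.00251). Pf4 is also in the megakaryocyte and platelet marker list, which summed to 289, 284 and 291 CPM in cluster KO and 459, 527 and 427 CPM in wildtype libraries, and the part of that difference in Pf4 was not tested.

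Ccl9 and Ccl8 fell as well. Ccl9, another CCR1 ligand, was at 39.7, 26.5 and 42.1 CPM in cluster KO and 58.0, 58.0 and 50.7 CPM in wildtype libraries, with a log2 fold change of -0.62 (SE 0.18, edgeR adjusted p = 0.031), the opposite sign to Ccl6. Its call was lost without cluster KO replicate 2 (adjusted p = 0.115) or wildtype replicate 1 (0.0873), 2 (0.102) or 3 (0.0643). Ccl8, a ligand of CCR2 and other receptors, had 0, 5 and 0 counts in cluster KO and 68, 10 and 22 in wildtype libraries (edgeR adjusted p = 0.0169), and lost its call without cluster KO replicate 3 (0.0518) or wildtype replicate 1 (0.0822).

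Cxcl12, the stromal ligand of CXCR4, varied more between libraries than between genotypes. It was at 95.2, 35.8 and 9.43 CPM in cluster KO and 2.71, 30.8 and 10.5 CPM in wildtype libraries. Its log2 fold change was 1.68 (SE 1.18, 95% interval -1.38 to 4.75, edgeR adjusted p = 0.349). Lepr and Kitl, markers of the stromal cells that make CXCL12, ranged with it, from 6 to 195 counts and 2 to 68 counts in cluster KO and from 2 to 45 and 0 to 53 in wildtype libraries. Mif, an abundant further ligand of CXCR4, was at 405, 368 and 333 CPM in cluster KO and 460, 459 and 435 CPM in wildtype libraries (-0.29, SE 0.10, edgeR adjusted p = 0.0611). Mif passed under upper quartile scaling (-0.39, adjusted p = 0.0387) and without cluster KO replicate 1 (0.0148). Ccl4, the third of the ligands with the highest level per kb, had 0.27 (SE 0.20, adjusted p = 0.352).

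**Figure D4:**
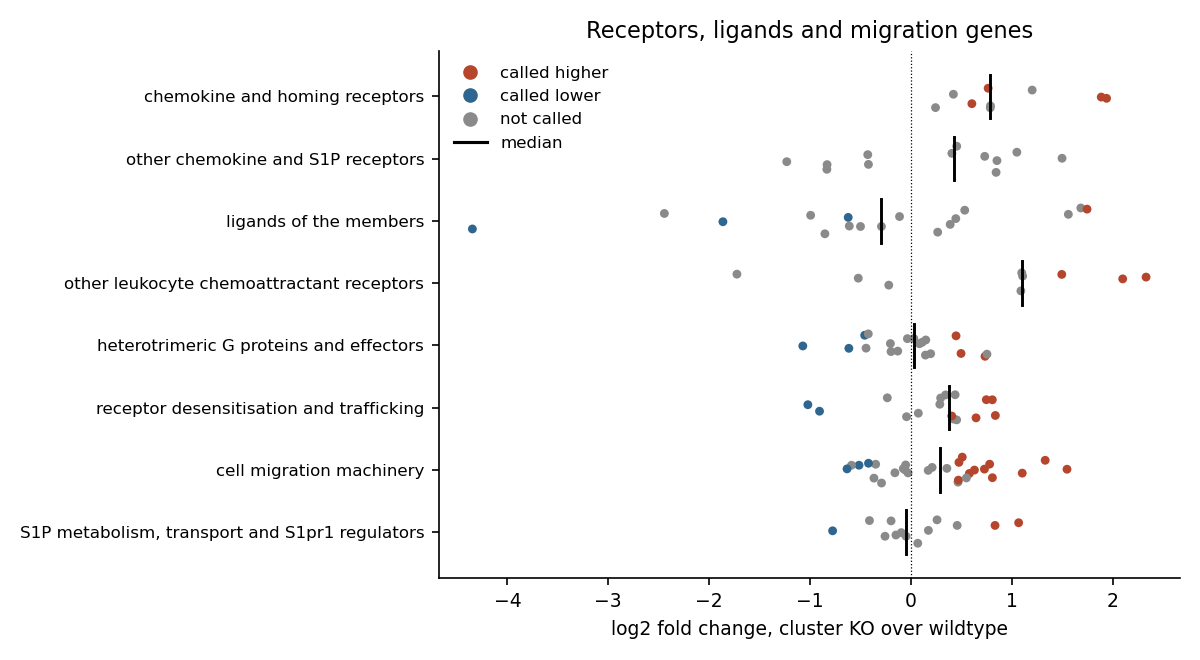
Log2 fold change of cluster KO over wildtype for each tested gene of the receptors and of 7 lists of ligands, other receptors and signalling genes, with the median of each list as a black bar. The receptors have a median of 0.79, other chemoattractant receptors 1.10 and ligands -0.29; red marks genes called higher and blue genes called lower.

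Some receptors for other chemoattractants of myeloid cells rose more than 2-fold. Of 9 tested, 3 rose and none fell, with a median log2 fold change of 1.10, beside 15.9% higher over all tested genes, and DESeq2 called 5. C5ar1, the receptor for complement C5a, was at 20.7, 19.6 and 19.2 CPM in cluster KO and 5.79, 3.00 and 5.02 CPM in wildtype libraries (log2 fold change 2.10, SE 0.26, edgeR adjusted p = 0.00154). Fpr1, the receptor for formyl peptides of bacteria, was at 18.5, 18.2 and 14.2 CPM against 4.84, 3.17 and 2.05 CPM (2.33, SE 0.31, adjusted p = 0.00217). Ltb4r1, the leukotriene B4 receptor, was at 8.77, 9.09 and 8.60 CPM in cluster KO and 3.71, 3.45 and 2.20 CPM in wildtype libraries (1.50, SE 0.28, adjusted p = 0.00517). All 3 kept their call under every alternative. Fpr2 had 1.09 (SE 0.40, edgeR adjusted p = 0.0686), with cluster KO replicate 3 inside the wildtype range, and passed without that library (0.0216).

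Of 19 tested genes for G proteins and effectors, 3 rose and 3 fell, with a median of 0.03, shares near the 15.9% higher and 12.1% lower over all tested genes. The 3 that rose were Gnai2, Gnai3 and Ric8a, a chaperone of alpha subunits. Gnai2, the main inhibitory alpha subunit of leukocytes, was at 232, 269 and 286 CPM in cluster KO and 168, 149 and 156 CPM in wildtype libraries (log2 fold change 0.73, SE 0.12, edgeR adjusted p = 0.00322). Gnaq and Gna13, alpha subunits of other classes, fell by 1.07 (SE 0.27, adjusted p = 0.0158) and 0.62 (SE 0.15, adjusted p = 0.0163) on the log2 scale. Gng5, a gamma subunit, fell by 0.46 (SE 0.13, adjusted p = 0.0275), Gnai3 rose by 0.45 (SE 0.14, adjusted p = 0.0362), and Gnb1 had 0.14 (SE 0.11, adjusted p = 0.333). Leaving out any library other than cluster KO replicate 1 left 1 gene of the list higher, and leaving out cluster KO replicate 2, wildtype replicate 2 or wildtype replicate 3 left none lower. Gnaq and Gna13 lost their calls without cluster KO replicate 2, wildtype replicate 2 or wildtype replicate 3 (adjusted p from 0.0502 to 0.0757), Gng5 without these or cluster KO replicate 3 (0.0686 to 0.105), and Gnai3 without any 1 library but cluster KO replicate 1 (0.0738 to 0.133) and under upper quartile scaling (0.0642). Gnai2 stayed called in every alternative.

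Genes that switch receptors off moved in both directions. Of 16 tested genes of desensitisation and trafficking, 5 rose and 2 fell, with a median of 0.37, beside the same 15.9% and 12.1%. Rgs19 and Rgs2, which shorten G protein signals, rose by 0.84 (SE 0.13, edgeR adjusted p = 0.00291) and 0.75 (SE 0.13, adjusted p = 0.00383), while Rgs10, of the same family, fell by 0.91 (SE 0.13, adjusted p = 0.00262). Arrb1, the beta-arrestin that uncouples and internalises receptors, was at 36.3, 37.4 and 22.9 CPM in cluster KO and 59.5, 60.7 and 75.8 CPM in wildtype libraries (-1.02, SE 0.20, adjusted p = 0.00617). Rgs18 rose by 0.41 (SE 0.13, adjusted p = 0.0364) and lost its call without any 1 library other than cluster KO replicate 1, at adjusted p = 0.0668 without wildtype replicate 1 to 0.139 without wildtype replicate 2, and under upper quartile scaling (0.0764). With length and GC trends removed, Rgs19 was at 0.50, Rgs2 at 0.48 and Rgs18 at 0.63.

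Other genes turn a receptor signal into movement. Of 28 tested genes of the cell migration machinery, most of them small GTPases with their regulators and partners, 11 rose, 3 fell and 14 were not called, with a median of 0.28, beside 15.9% higher and 12.1% lower over all tested genes. Under upper quartile scaling, 9 were higher and 5 lower. Coro1a, an actin regulator of leukocytes, was at 427, 575 and 620 CPM in cluster KO and 194, 199 and 162 CPM in wildtype libraries (log2 fold change 1.55, SE 0.15, edgeR adjusted p = 0.000566). Rac2, the Rac GTPase of blood cells, stood at 635, 683 and 751 CPM, compared with 307, 304 and 212 CPM (1.33, SE 0.15, adjusted p = 0.00113). Both stayed called in every alternative. Cdc42, a GTPase that sets cell polarity, rose by 0.81 (SE 0.14, adjusted p = 0.00408) and Skap2, an integrin adaptor, by 0.73 (SE 0.12, adjusted p = 0.00365), or by 0.41 for Skap2 with length and GC trends removed. Rap1b, a GTPase that activates integrins, rose by 0.47 (SE 0.15, adjusted p = 0.0417) and lost its call without cluster KO replicate 2 (0.115) or 3 (0.128) or wildtype replicate 2 (0.113) or 3 (0.144), and under upper quartile scaling (0.0706). The 3 lower calls became 7 without cluster KO replicate 1 and 0 without any 1 of the other 5 libraries, and the 11 higher calls became 7 without wildtype replicate 2 or 3.

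Around S1pr1, the genes of S1P supply and of S1PR1 control gave 2 higher and 1 lower call of 13 tested, with a median of -0.05, shares not above the 15.9% and 12.1% over all tested genes. With length and GC trends removed, 3 were higher and 3 lower. Cd69, which pulls S1PR1 from the cell surface, was at 40.1, 38.2 and 42.4 CPM in cluster KO and 18.3, 24.7 and 14.6 CPM in wildtype libraries (log2 fold change 1.07, SE 0.20, edgeR adjusted p = 0.00515). Mfsd2b, the S1P exporter of red cells and platelets, was at 78.3, 83.2 and 100 CPM against 155, 156 and 137 CPM (-0.78, SE 0.13, adjusted p = 0.00371). Erythroid markers summed to 862, 1082 and 1083 CPM in cluster KO and 1144, 1464 and 1566 CPM in wildtype libraries, and their part in the Mfsd2b difference was not tested. Cers2, a ceramide synthase, rose by 0.83 (SE 0.20, edgeR adjusted p = 0.0135), a call lost without wildtype replicate 2 (0.0527) or 3 (0.0658), which left 1 higher gene. Foxo1, a transcription factor upstream of S1pr1 and Ccr7 in lymphocytes, had 0.46 (SE 0.18, adjusted p = 0.0842) and passed with length and GC trends removed, at 0.82 (0.0057). Sphk1, which makes S1P, had -0.20 (SE 0.17, adjusted p = 0.417) and was at -0.56 (0.0225) in that setting.

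The genes whose levels followed Cxcr4 most closely over the 6 libraries were Tasp1, Zfp69 and Eid2. Likeness was the root mean square difference of log2(CPM + 0.5), each gene centred on its own mean, among 9770 protein-coding genes with a mean of at least 5 CPM. The differences were 0.0683, 0.0860 and 0.0879 on the log2 scale. For S1pr1 the nearest genes were Nceh1, Fam53b and Dgke, at 0.0602, 0.0658 and 0.0702. No other receptor of the set was among these, and the libraries share genotype, depth and the marker shifts given above.

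**Figure D5:**
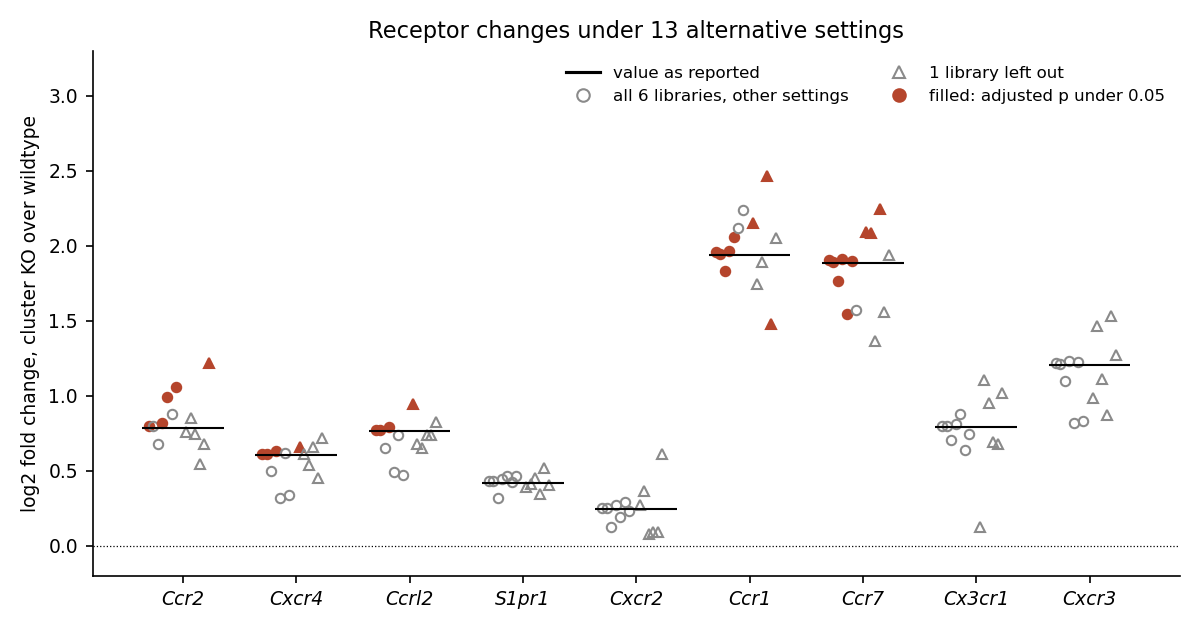
Log2 fold change of each tested receptor as reported (black bar), under 7 other settings with all 6 libraries (circles) and with 1 library left out (triangles), filled red where the adjusted p is under 0.05. All values lie above 0; Ccr7 was called in 9 of 13 alternatives, Ccr1 in 8, Ccr2 in 5, and Cxcr4 and Ccrl2 in 4 each.

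Over the 13 alternatives, the log2 fold change ran from 0.32 to 0.72 for Cxcr4, 0.47 to 0.95 for Ccrl2, 1.48 to 2.47 for Ccr1, 1.37 to 2.25 for Ccr7 and 0.55 to 1.22 for Ccr2. Cxcr2, Cxcr3, Cx3cr1 and S1pr1 were called in none of the 13. The 6 genes without overlap between genotypes, all higher in cluster KO, compare with 22.9% of all tested genes that were higher without overlap and 23.1% that were lower. At an unadjusted p under 0.05 the set held 6 higher genes and none lower, beside 6426 of all 15686 tested genes in either direction.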

How the data were processed

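RNA was measured in 6 mouse bone marrow libraries made, per the labels' protocols, by poly(A) priming and Nextera XT without strand, and sequenced in 1 pool. The submitters' processing notes name bcl2fastq, TopHat2, HTSeq and the mm10 build. Tool versions, annotation and counting mode were not given in the sources used here. What the authors deposited were raw counts per Ensembl gene. The 5 HTSeq summary rows, 23.4 to 30.8% of reads, were left out. Symbols, positions and exon lengths came from GENCODE M21 (47310 of 47729 genes matched).

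Groups came from the sample titles. The test was edgeR 4.0.16 in R 4.3.3: TMM, filterByExpr (minimum count 10), robust quasi-likelihood F-test on genotype alone, Benjamini-Hochberg at 0.05 over all 15686 genes tested. SE is the coefficient over the square root of F. The script was tested on simulated data. Alternatives were DESeq2 1.42.0, RLE and upper quartile scaling, no filter, removal of length and GC trends (loess, span 0.5), a replicate block alone and with those trends, and leaving out each library.

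The receptors, the 7 pathway lists, the 10 marker lists and the tests were chosen with earlier results of these data known. Named were all receptors, up to 4 genes per list by p and 3 by CPM per kb, and 3 genes most like Cxcr4 and S1pr1. Rian, Ccr1l1, Ltf, Gm9889 and single markers were added for their position or role. Marker lists share Cxcl12, Pf4, Ppbp, Ccr9 and Ltf with the pathway lists or named neighbours. Ccl19 and Ccl21a, with 2 identifiers each, and P2ry8, with none, were left out. Of the genes on the lists, 1 that the naming rule takes is not reported here. Limits for a count of 0 cover counting error only, since reads carry no molecular identifiers.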

Additional observations from a re-analysis of the deposited data

How the results depend on the processing

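None of the 9 tested receptors and of the 36 genes that the naming rule takes from the lists changed direction under any of the 13 alternatives run. Other genes named for their position or role, among them Ltf, Cxcl12 and single markers, were not run under them. Of the receptors, 4 were called higher as reported, against 2 under upper quartile scaling, 1 with the replicate block, 1 with the replicate block and length and GC trends removed, and 0 to 4 on leaving out 1 library. It was 0 without cluster KO replicate 3, with 5 at an unadjusted p under 0.05, beside 5429 of all 16321 genes tested there. The number was 1 without cluster KO replicate 2, wildtype replicate 2 or wildtype replicate 3, and 2 without wildtype replicate 1. The block left Ccr7 called. With block and trends removed Ccr7 was lost and Ccr2, not called as reported, passed. Deviations of same-numbered libraries from their genotype mean had correlations of -0.122, 0.0154 and -0.0891. With 3 libraries per genotype, these values cannot decide whether the numbers pair the libraries. The block costs degrees of freedom.

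Over all genes, 2487 higher and 1895 lower became 1331 and 865 with the replicate block, 804 and 1029 with the block and trends removed, and 1258 to 3151 higher and 742 to 2579 lower without 1 library. Of the calls, 56.8% were higher as reported, 46.6% under upper quartile scaling (2100 higher, 2411 lower), which moved the median log2 fold change to -0.10, and 46.6% with trends removed (1872 and 2142). Over the 7 lists, 25 higher and 12 lower genes became 6 lower with the block, 13 and 6 with block and trends, and 17 to 32 higher and 5 to 20 lower without 1 library. Depth limits Cxcr3, Ccr7, Cx3cr1 and wildtype Ccr1, with 9 to 93 counts in most libraries.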
